A study of Homo sapiens with 6 samples.

Results

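Nuclear-encoded oxidative phosphorylation genes were described across 6 RNA-seq libraries of K562, an established chronic myeloid leukaemia line with erythroid features. Members were the genes whose symbols begin with NDUFA, NDUFB, NDUFC, NDUFS, NDUFV, COX4 to COX8, UQCR or ATP5, together with SDHA, SDHB, SDHC and SDHD. The rule found 104 members among 28069 genes. They comprised 38 complex I genes, 8 complex I assembly factors, 4 complex II genes, 8 complex III genes, 16 complex IV genes and 17 complex V genes. The other 13 were 7 antisense, divergent, readthrough or pseudogene entries, 5 paralogues or other genes set apart from the subunits, such as ATP5S, and ATP5IF1, the inhibitor of the ATP synthase.

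The libraries fell into 3 groups of 2 replicates, numbered 1 and 2. The control libraries carried the guide RNA sgNeg2 and were labelled WT. The knockout libraries carried sgRNA#1 or sgRNA#2 against ZNF410, a zinc-finger transcription factor, and were labelled ZNF410 KO. All were grown in IMDM with serum and antibiotics, and the labels name no other treatment. They do not say whether the knockout cells were clones or pools, how the knockout was made, or whether a replicate number marks a separate culture, so p-values measure only the spread between these libraries, which may be technical.

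Oxidative phosphorylation couples electron transfer to ATP synthesis in the inner mitochondrial membrane. Complex I takes electrons from NADH and complex II from succinate. Complex III passes them from ubiquinol to cytochrome c, complex IV passes them to oxygen, and complex V uses the resulting proton gradient to make ATP. Complexes I, III, IV and V mix subunits from nuclear genes with subunits encoded in mitochondrial DNA, whereas complex II is encoded entirely in the nucleus. The FPKM tables, from which the members were taken, held 0 of the mitochondrially encoded protein genes, so all statements concern the nuclear subunits.

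Each library had 8788816 to 9537470 whole-number counts assigned to genes. ZNF410 was at 15.45 and 14.99 FPKM (fragments scaled to transcript length and library size) in the control libraries and at 6.58 to 9.28 FPKM in the 4 knockout libraries. CHD4, a chromatin remodeller gene known as a target of ZNF410, was at 91.8 and 107 FPKM in the control and at 44.2 to 52.2 FPKM in the knockout. All 11 K562 markers were expressed, from EPOR at a mean of 7.57 FPKM to HBG2, a fetal globin gene, at 15195 FPKM, but the levels of several differed widely between libraries. Their summed FPKM was 14096 to 19190 in the replicate 1 libraries and 30672 to 43944 in the replicate 2 libraries, and within each number it was lowest in the control. Between the numbers 8 of the 11 were higher in every replicate 2 library, among them HBZ, an embryonic globin gene, at 2320 to 4688 against 634 to 696 FPKM, and GATA1 and NFE2 were lower. Markers of other blood lineages were at a mean of 0.475 FPKM or less, except CD3D, at 23.0 to 38.5 FPKM in replicate 1 and 4.63 to 6.77 FPKM in replicate 2, and MPO was listed at 0. The part of these marker differences in the values of the respiratory genes was not tested.

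Levels differed more between genes of a complex than between libraries. FPKM is corrected for transcript length, so levels of different genes could be set side by side. In complex I the highest member was NDUFB9, an accessory subunit, at a mean of 852 ± 25.9 FPKM (SD, n = 6), and the lowest was NDUFV3, an accessory subunit of the NADH-oxidising module, at 30.3 ± 1.60 FPKM. In complex III, UQCRH, the hinge protein near cytochrome c1, was at 1644 ± 84.8 FPKM and UQCRB at 54.4 ± 1.93 FPKM. In complex V, ATP5F1B, the catalytic beta subunit, was at 1107 ± 84.4 FPKM and ATP5MG at 169 ± 4.89 FPKM. Even the lowest of the 17 complex V genes stood above the median complex I gene.

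Complex II was given in full because it has only 4 genes. SDHA, the flavoprotein that oxidises succinate, had 109 and 122 FPKM in the control libraries, 106 and 124 FPKM with sgRNA#1, and 103 and 121 FPKM with sgRNA#2. SDHB, the iron-sulfur subunit, had 209 and 197 FPKM in the control, 211 and 198 FPKM with sgRNA#1, and 212 and 192 FPKM with sgRNA#2. Replicate 2 was the higher of each pair for SDHA and the lower of each pair for SDHB, and the control values lay within the range of the knockout values for both genes. The membrane anchors SDHC and SDHD had means of 47.5 ± 2.41 and 183 ± 9.12 FPKM (SD, n = 6).

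The median level of a complex, taken in each library and then averaged over the 6 libraries, was 345 ± 12.6 FPKM for complex V, 151 ± 5.44 FPKM for complex I, 149 ± 6.75 FPKM for complex II and 136 ± 2.83 FPKM for complex III. Over all 16 genes the complex IV median was 217 ± 14.1 FPKM, between complexes V and I. For the 10 complex IV genes at a mean of at least 1 FPKM it was 761 ± 39.0 FPKM, above every other complex. Complexes I and II overlapped between libraries, at 145 to 157 and 138 to 155 FPKM, and complex II overlapped complex III, at 132 to 141 FPKM. The 8 assembly factors of complex I, which help build the complex but are not part of it, had a median of 26.1 ± 1.45 FPKM. For comparison, the median over the 11003 genes with a mean of at least 1 FPKM was 13.1 FPKM.

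**Figure D1:**
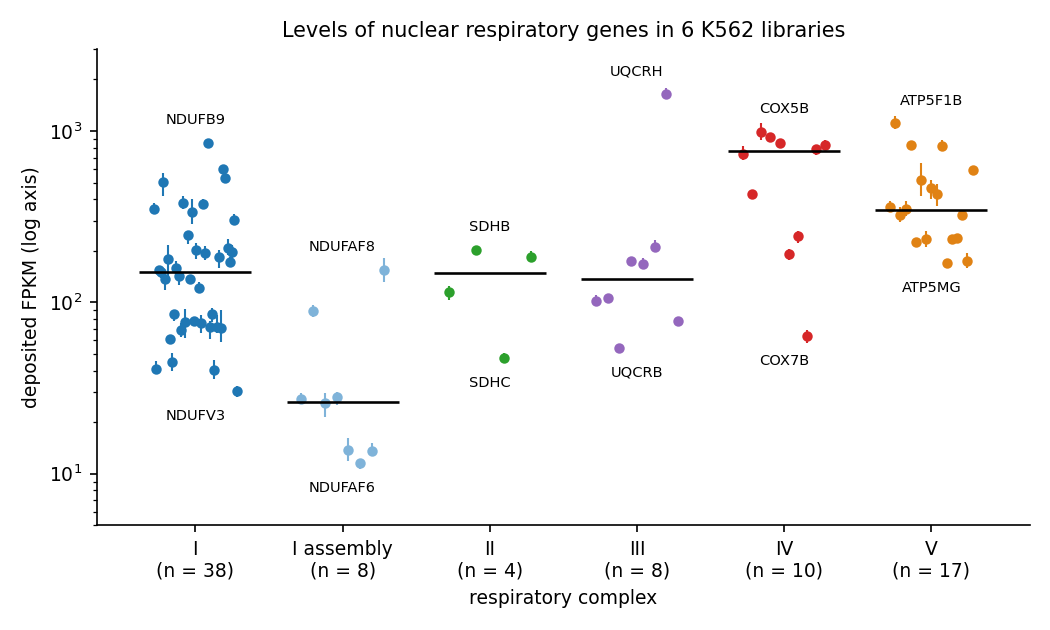
Mean FPKM over 6 libraries of each nuclear respiratory gene (points, log axis) by complex, with vertical bars from the lowest to the highest library and black lines at the complex median. Genes with a mean of at least 1 FPKM are drawn, and their complex IV median of 761 FPKM lies above the complex V median of 345 FPKM.

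Several complex IV subunits come as a widely used gene and a tissue-restricted isoform, and K562 libraries held almost only the first. COX4I2, COX6A2 and COX8C were listed at 0 in all 6 libraries, while their partners COX4I1, COX6A1 and COX8A were at 679 to 820, 877 to 980 and 778 to 891 FPKM. COX7A1, the heart and skeletal muscle isoform, was listed at 0 in 3 libraries and reached 0.34 FPKM at most, against 221 to 260 FPKM for COX7A2. COX6B2, the testis isoform, was at 0.31 to 0.69 FPKM and made up at most 0.0776% of its pair with COX6B1. ATP5MGL was also listed at 0 throughout.

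As a share of the summed FPKM of all genes, the 83 subunit genes took 3.33%, 3.34% and 3.37% in the replicate 1 libraries and 3.57%, 3.55% and 3.53% in the replicate 2 libraries, in the order sgNeg2, sgRNA#1, sgRNA#2. The share was higher in all replicate 2 libraries than in all replicate 1 libraries, but the summed FPKM of the subunits was not: it went from 24327 to 23925 in the control, from 24358 to 25082 with sgRNA#1 and from 23698 to 24135 with sgRNA#2. In RNA from whole cultures, more RNA per cell and more cells expressing a gene cannot be told apart. The summed FPKM of all genes was also lower in replicate 2 within each guide, at 670507 against 729825 for the control. Complex I and complex V took the largest parts, at means of 1.10% and 1.05%, followed by complex IV at 0.859%, complex III at 0.361% and complex II at 0.0779%. The subunit genes varied little between libraries: the median coefficient of variation (SD over mean) was 5.97% for the 77 subunit genes with a mean of at least 1 FPKM, against 8.39% for the 3188 genes of all kinds with a mean of at least 30 FPKM. These sets were not matched for level. For the 6 members at that mean that are neither subunits nor assembly factors it was 32.9%, where that mean is at least 1 FPKM. ATP5MC2 had the largest variation among subunits, at 20.7%, and ATP5MC1, which encodes the same mature protein, the smallest, at 1.59%.

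The genes were dispersed: the 83 subunit genes lay on at least 22 chromosomes, with 12 on chromosome 19. Their transcripts were short, with a median of 857 bases over the 91 members tested against 2880 bases over all genes tested. RefSeq promoter windows of the GRCh38.p14 assembly, 300 bases from 250 before a start site to 50 after it, were found for 79 members, with 97 windows. Each of the motifs below was searched on both strands. The NRF1-type motif GCATGCGC, whose reverse complement GCGCATGC can overlap it, occurred in 18 windows, or 18.6%, against 3.05% of all 35116 windows. The ETS-type motif CCGGAAGT occurred in 11.3% of member windows against 4.14% of all, and the YY1-type motif AAGATGGCG in 13.4% against 1.75%. These matches describe letters only, and neighbouring genes such as NDUFA6 and NDUFA6-DT share a window.

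The promoters of 4 genes that recur in the comparisons are shown as the 250 bases before the start site, 5′ to 3′ on the strand of the gene, with motif matches in capitals. ATP5MC2, ATP5F1C and COX5B carry the NRF1-type motif, and NDUFA13, the member called in the knockout, carries of these only the ETS-type motif. All 4 were called between the replicate numbers, not all in the same direction, where 45% of all genes were called. They were chosen because they recur there, so this says nothing about the motifs. In fits that left out a library the call was lost each time for NDUFA13 and mostly for ATP5F1C. Among other genes with the NRF1-type motif, SDHB and SDHD for example were not called. The windows are chr12:53676084-53676333 on the minus strand for ATP5MC2, chr10:7787927-7788176 on the plus strand for ATP5F1C, chr2:97645812-97646061 on the plus strand for COX5B and chr19:19515975-19516224 on the plus strand for NDUFA13.
ATP5MC2: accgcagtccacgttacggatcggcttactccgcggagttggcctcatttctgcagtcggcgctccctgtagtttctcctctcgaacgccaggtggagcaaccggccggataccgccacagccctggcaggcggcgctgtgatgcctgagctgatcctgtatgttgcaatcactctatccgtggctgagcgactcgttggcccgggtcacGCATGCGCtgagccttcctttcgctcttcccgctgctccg
ATP5F1C: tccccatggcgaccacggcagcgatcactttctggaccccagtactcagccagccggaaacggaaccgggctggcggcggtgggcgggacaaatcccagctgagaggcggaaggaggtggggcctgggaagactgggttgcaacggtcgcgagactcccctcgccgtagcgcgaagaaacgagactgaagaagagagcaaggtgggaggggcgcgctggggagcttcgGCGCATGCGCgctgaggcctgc
COX5B: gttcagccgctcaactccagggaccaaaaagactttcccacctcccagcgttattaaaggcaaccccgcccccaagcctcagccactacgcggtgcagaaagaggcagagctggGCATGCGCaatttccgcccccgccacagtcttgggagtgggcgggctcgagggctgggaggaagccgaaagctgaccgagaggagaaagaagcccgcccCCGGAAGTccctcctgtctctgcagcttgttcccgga
NDUFA13: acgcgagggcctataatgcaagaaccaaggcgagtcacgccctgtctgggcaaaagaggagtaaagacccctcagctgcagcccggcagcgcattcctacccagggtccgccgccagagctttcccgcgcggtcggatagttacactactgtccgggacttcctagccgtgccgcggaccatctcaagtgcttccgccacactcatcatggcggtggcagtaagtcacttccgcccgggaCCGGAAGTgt
The match begins 40 bases before the start site in ATP5MC2. In ATP5F1C the capitals cover both overlapping strands of the motif, 22 bases before the start. COX5B holds an NRF1-type match 136 bases and an ETS-type match 37 bases before its start.

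The first comparison asked whether loss of ZNF410 changed the respiratory genes, and few members passed a test in any fit. Of the 91 members with enough counts to test, 0 were called at an adjusted p under 0.05 by edgeR in the knockout against the control, where 0% of the 12282 genes tested were called. At an unadjusted p under 0.05, 2 of 91 members passed, where 2.31% of all genes did, and DESeq2 and limma also called 0 members, with 19 and 1 of all genes. The same fit called 0 members for sgRNA#1 alone, for sgRNA#2 alone and for sgRNA#2 against sgRNA#1, each beside a background of 0%. At an unadjusted p under 0.05, 1, 0 and 1 of 91 members passed in these, where 0.977%, 1.15% and 0.269% of all genes did. Libraries of the same replicate number deviated from their group means together, so the fit was repeated with the number as a block. It called 1 of 91 members, NDUFA13, which rose, where 1.84% of all genes were called, and fitted to the estimated counts it called the same single member of 94, where 3.03% were called.

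NDUFA13 encodes an accessory subunit of complex I also known as GRIM-19. Its levels were 494 and 419 FPKM in the control libraries, 569 and 523 FPKM with sgRNA#1 and 529 and 502 FPKM with sgRNA#2. All 4 knockout libraries were above both control libraries, the nearest pair being sgRNA#2 replicate 2 and control replicate 1. With the block NDUFA13 rose by 0.26 ± 0.060 (SE) on the log2 scale (edgeR adjusted p 0.0405). The fit that ignored the numbers gave 0.25, at an unadjusted p of 0.0398 and an adjusted p of 0.9999 (edgeR). Neither guide alone passed with the block and all libraries, at 0.26 and an adjusted p of 0.129 for sgRNA#1 and 0.25 and 0.110 for sgRNA#2 (edgeR). Over the 6 blocked fits that left out 1 library, the rise ran from 0.21 to 0.30 for sgRNA#1 and from 0.21 to 0.29 for sgRNA#2. Without control replicate 1, the higher of the 2 controls, it was 0.30 and 0.29. For the knockout as a whole the call was lost in each of the 6 blocked fits that left out 1 library, with adjusted p from 0.0660 to 0.243 (edgeR), and with the block in DESeq2, in limma and with no filter beyond 1 count, the last at 0.0525 (edgeR).

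Most other members were measured finely enough to bound the difference. With the block, 85 of the 91 members had a 95% interval within 0.5 on the log2 scale in either direction, or 93.4%, against 67.5% of all genes tested. The exceptions were NDUFA6, NDUFC2, COX6B2, NDUFA4L2, ATP5S and NDUFV2-AS1, which had few counts. In the estimated counts all 38 complex I genes and all 17 complex V genes were within that bound. The 4 complex II genes had log2 fold changes from -0.022 for SDHD to 0.0044 for SDHC, with intervals from -0.15 to 0.14, and in the estimated counts the values ran from -0.083 to 0.057. The lowest value among subunits of complex III was -0.18 for UQCRFS1, the Rieske iron-sulfur protein, with an adjusted p of 0.214 (edgeR), and the highest was 0.15 for UQCRQ, with 0.320.

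**Figure D2:**
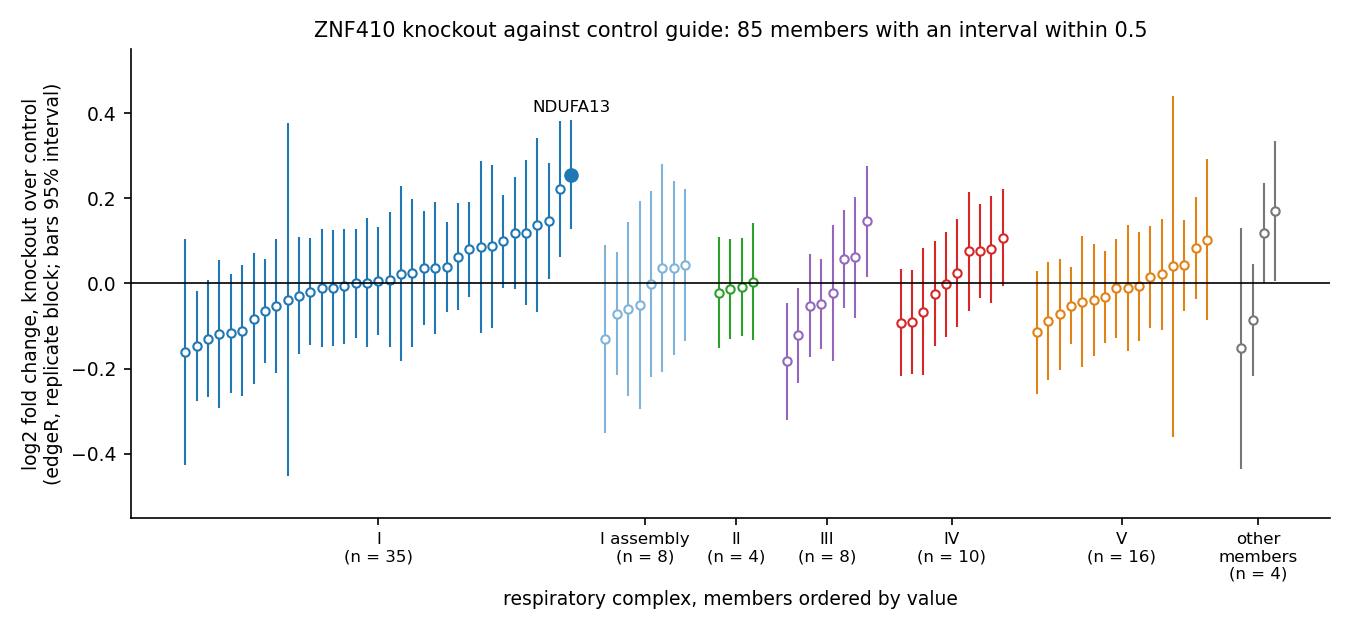
Blocked edgeR log2 fold change of knockout over control (points) with 95% intervals (bars) for the 85 members whose interval stayed within 0.5 on the log2 scale, ordered by value within a complex. The filled point is NDUFA13 at 0.26, and open points did not pass the test.

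By complex, the median log2 fold change with the block was 0.0088 for complex I, -0.011 for complex II, -0.035 for complex III, 0.025 for complex IV and -0.011 for complex V, beside 0.0045 over all genes. The assembly factors had a median of -0.026. Of the 91 members 43 were above 0. The median standard error of a single member was 0.064. In deposited FPKM, 9 members were higher and 3 lower in all knockout libraries than in both controls, or 12.8% of 94, against 9.14% of all genes. The 3 lower members were NDUFA1, NDUFB10 and UQCRC2.

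COX6B2, the testis isoform, also did not overlap between the groups. It was at 0.34 and 0.31 FPKM in the control, 0.69 and 0.63 FPKM with sgRNA#1, and 0.63 and 0.54 FPKM with sgRNA#2. In the separate whole-number table its counts were 8 and 4 in the control and 10 to 18 in the knockout. Its blocked log2 fold change was 1.24 ± 0.50 (SE) and did not pass, with an adjusted p of 0.293 (edgeR).

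The guides were next compared number by number, as the log2 ratio of FPKM + 1 in a knockout library to that in the control library of the same number. The median over the 78 subunit genes with a mean of at least 0.5 FPKM was 0.0054 for sgRNA#1 replicate 1, 0.042 for sgRNA#1 replicate 2, -0.0057 for sgRNA#2 replicate 1 and 0.0054 for sgRNA#2 replicate 2. The widest of these, sgRNA#1 replicate 2, had 60 of 78 subunits above 0, whereas the others had 39 to 41 above 0. Over all genes 48.6% were above 0 in that library and 49.5% to 54.4% in the others. In that library the complex IV median was 0.084, the complex I median 0.050 and the complex V median 0.033, with 15 of 17 complex V genes above 0. In whole-number counts scaled to library size (CPM) the same medians were 0.047, 0.051 and 0.057, in the opposite order, with 11 of 17 complex V genes and 50 of 78 subunits above 0. The complex V median was below 0 in both replicate 1 comparisons, at -0.041 for sgRNA#1 and -0.027 for sgRNA#2. The guide comparisons of 1 number share a control library, so they are not independent.

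**Figure D3:**
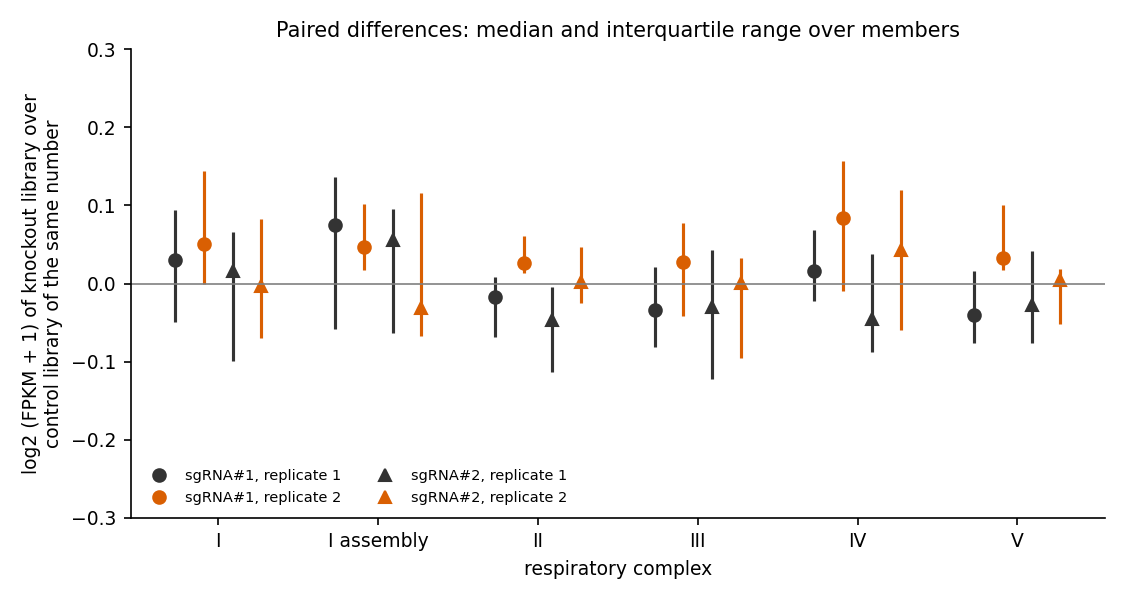
Log2 ratio of FPKM + 1 in each knockout library over the control library of the same replicate number, as median (symbols) and interquartile range (bars) over the members of each complex. Medians lie between -0.047 and 0.084 in every complex.

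With the block, sgRNA#1 against control called 1 of 91 members, NDUFA6, where 0.887% of all genes were called, sgRNA#2 called 0 where 1.38% were called, and sgRNA#2 against sgRNA#1 called 0 where 0.0896% were called. At an unadjusted p under 0.05, 9 of 91 members passed for sgRNA#2, where 12.3% of all genes did, and 3 of 91 between the guides, where 4.39% did. The call of NDUFA6, a complex I accessory subunit, is uncertain. Its whole-number counts were 7 and 6 in the control, 11 and 134 with sgRNA#1 and 2 and 10 with sgRNA#2, only 0.0237 of its estimated count. The value of 134 came from 1 library. Its FPKM was 86.4 and 88.7 in the control, 77.7 and 90.9 with sgRNA#1, and 79.3 and 87.4 with sgRNA#2, so the groups overlapped, and in the estimated counts the blocked log2 fold change was -0.057 with an adjusted p of 0.821 (edgeR).

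The whole-number counts were low against the estimated counts for a few other members too. The median ratio was 0.518 over the 91 tested members and 0.553 over all genes tested, and 77 members were between 0.45 and 0.62. NDUFC2 and ATP5MF were at 0.0119 and 0.0437. NDUFA3 and ATP5F1E, the epsilon subunit of the ATP synthase, were at 0.0534 and 0.00207 and failed the count filter despite mean levels of 178 and 831 FPKM. NDUFB2-AS1, UQCRHL and NDUFV2-AS1 had ratios of 31.6, 23.4 and 5.64. NDUFA6, NDUFC2 and ATP5MF share their locus with the divergent gene NDUFA6-DT or the readthroughs NDUFC2-KCTD14 and ATP5MF-PTCD1, and UQCRHL is a near copy of UQCRH. No such entry for NDUFA3 or ATP5F1E is among the members. No source used here says whether counting used strand, and the cause of these ratios was not tested. The whole-number counts of all these genes are uncertain.

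A larger difference separated the replicate numbers, between which the summed K562 markers also differed without overlap. Within guides, 33 of the 91 members were called between replicate 2 and replicate 1 by edgeR, 20 higher and 13 lower in replicate 2. Over all genes 45% were called, 21.6% higher and 23.5% lower. Complex V had 6 of 16 genes higher and 2 lower, complex IV 1 of 11 higher and 4 lower, and complex I 8 of 37 higher and 4 lower. In complex III 0 of 8 were called by edgeR, with 1 at an unadjusted p under 0.05, 0 by DESeq2 and 3 by limma. Over all genes 52.3% had an unadjusted p under 0.05, DESeq2 called 28% and limma 50%. Of the 33, NDUFA6 and NDUFB2-AS1 rest on uncertain counts, and without such members 18 were higher and 13 lower. Without sgRNA#1 replicate 1 the count was 12 members, 5 higher and 7 lower, and without sgRNA#1 replicate 2 it was 14, 6 higher and 8 lower, where 32% and 33.5% of all genes were called. Over the 6 fits that each left out 1 library, 10 of the 33 kept the call in every fit: ATP5F1D, ATP5IF1, ATP5MC2, COX5B, COX7A2L, NDUFA4L2, NDUFA5, NDUFAF8, NDUFS1 and NDUFS7. NDUFA13 and NDUFAF3 lost it in all 6, and 22 members lost it without sgRNA#1 replicate 1 and 20 without sgRNA#1 replicate 2, against 5 to 10 without each of the other libraries. Each guide had 1 library per number and its own term in the fit. The partner of a left-out library therefore adds almost nothing to this contrast. The fits without either library of a guide are near repeats, so these are not 6 separate checks.

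The c subunit, whose ring turns in the membrane part of the ATP synthase, is encoded by ATP5MC1, ATP5MC2 and ATP5MC3, which differ in their import sequences and give the same mature protein. ATP5MC2 was at 650 FPKM in replicate 1 and 418 FPKM in replicate 2 of the control, at 611 and 427 FPKM with sgRNA#1 and at 570 and 420 FPKM with sgRNA#2. Every replicate 1 library was above every replicate 2 library. It fell by 0.60 ± 0.058 (SE) on the log2 scale, with an adjusted p of 2.2e-06 (edgeR), and the fall passed in all 18 other settings tried, from -0.65 to -0.43. ATP5MC3 moved the other way, from 212 to 256 FPKM in the control, 218 to 262 FPKM with sgRNA#1 and 220 to 245 FPKM with sgRNA#2, a rise of 0.21 ± 0.052 with an adjusted p of 0.00441 (edgeR). ATP5MC1 stayed between 222 and 231 FPKM in all libraries.

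The mix of the 3 transcripts went with the replicate number in every guide. ATP5MC2 made up 59.5%, 58.1% and 56.3% of their summed FPKM in the replicate 1 libraries and 46.6%, 46.6% and 47.2% in the replicate 2 libraries, in the order sgNeg2, sgRNA#1, sgRNA#2. The summed level was 1012 to 1093 FPKM in replicate 1 and 888 to 915 FPKM in replicate 2. With the block, ATP5MC2 differed between knockout and control by 0.022, with a 95% interval from -0.11 to 0.15.

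**Figure D4:**
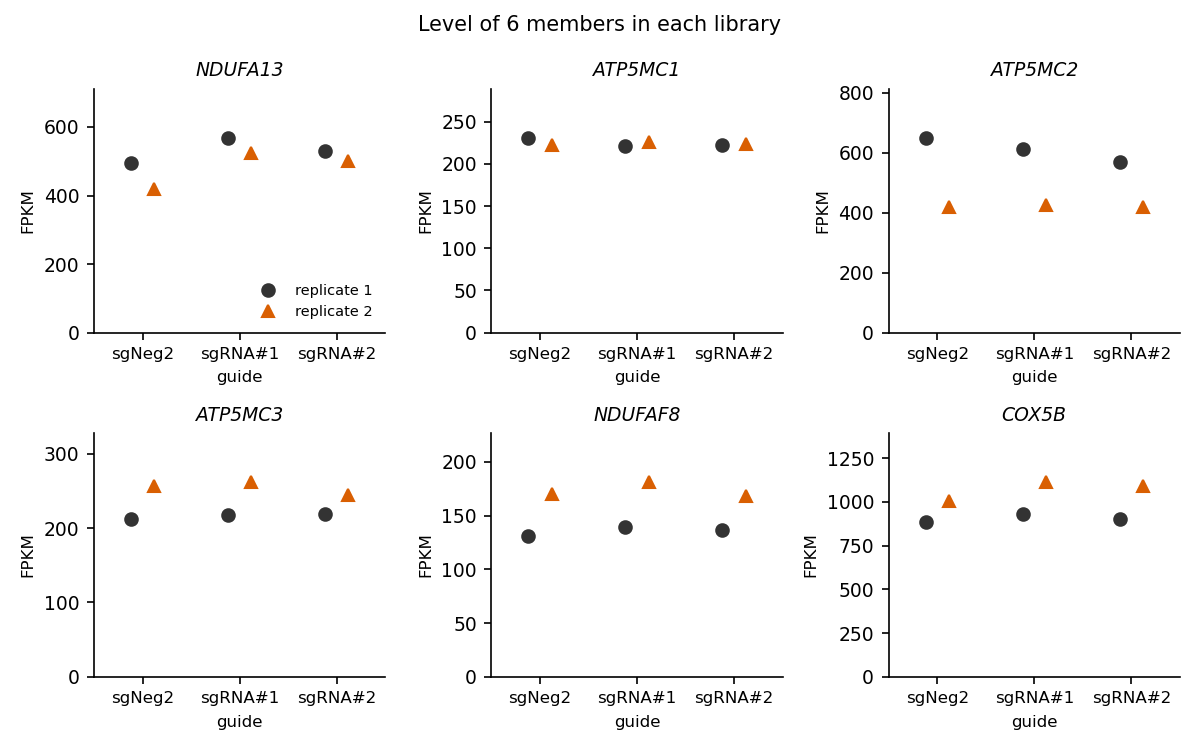
Deposited FPKM of 6 members in each library, by guide, with replicate 1 as circles and replicate 2 as triangles; axes start at 0. ATP5MC2 is lower and COX5B, ATP5MC3 and NDUFAF8 are higher in every replicate 2 library, while ATP5MC1 stays between 222 and 231 FPKM.

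In the catalytic part of the ATP synthase, the beta and gamma subunit genes ATP5F1B and ATP5F1C rose in replicate 2, by 0.17 ± 0.040 and 0.18 ± 0.055 (SE). ATP5F1D, the delta subunit gene, fell by 0.21 ± 0.053. ATP5F1B was at 1044, 1023 and 1032 FPKM in replicate 1 and at 1216, 1185 and 1142 FPKM in replicate 2, again with no overlap. In the stalk and membrane part ATP5PB, ATP5ME and ATP5MD rose by 0.15 to 0.25. ATP5IF1, which blocks ATP hydrolysis by the synthase, rose by 0.34 ± 0.052 in counts, but its FPKM values overlapped between the numbers, at 437 to 477 against 433 to 495, and limma on FPKM did not call it. ATP5S, a low-level gene set apart from the subunits, was at 1.46 to 2.16 FPKM in replicate 1 and 2.71 to 2.96 FPKM in replicate 2, a rise of 0.74 ± 0.23.

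In complex IV, COX5B rose by 0.22 ± 0.050 (SE), from 882, 932 and 899 FPKM in replicate 1 to 1007, 1113 and 1092 FPKM in replicate 2. COX6C, COX8A, COX7C and COX6A1 fell, by 0.23, 0.17, 0.16 and 0.14. COX7A2L, a relative of COX7A2 found in respiratory supercomplexes, fell by 0.22 ± 0.058. The complex IV median was -0.12, against 0.12 for complex V, 0.046 for complex III, 0.039 for complex II and 0.026 for complex I, and -0.0043 over all genes. In the estimated counts with a trend on transcript length removed the complex IV median was above 0, at 0.0091. The complex V median was 0.050 to 0.053 without a control or sgRNA#1 library and 0.16 without either sgRNA#2 library. Leaving out 1 library gave 0.0038 to 0.089 for complex III, 0.013 to 0.092 for complex II and -0.00099 to 0.053 for complex I, each lowest without sgRNA#1 replicate 2.

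In complex I, NDUFA5, NDUFB2 and NDUFS1 rose most among members with reliable counts, by 0.28 ± 0.049, 0.26 ± 0.076 and 0.23 ± 0.055 (SE). NDUFS1 is the largest iron-sulfur subunit of the electron input module. NDUFS4 and NDUFS7, other subunits of the peripheral arm, fell by 0.28 ± 0.10 and 0.23 ± 0.058, and NDUFB4 by 0.22. NDUFA13 also fell, by 0.17 ± 0.057. NDUFA3, which failed the filter on the whole-number counts, was at 203, 217 and 210 FPKM in replicate 1 and at 130, 156 and 154 FPKM in replicate 2, a fall of 0.53 ± 0.11 in the estimated counts with an adjusted p of 0.0014 (edgeR). Among assembly factors, NDUFAF8 rose by 0.48 ± 0.10 and kept the call whichever library was left out, whereas NDUFAF3 fell by 0.25 ± 0.096 and lost it each time. SDHA was the complex II gene that passed, with a rise of 0.14 ± 0.048.

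NDUFA4L2, a paralogue of NDUFA4 known to be induced in hypoxia, had the largest fall of all members. It was at 1.70, 2.42 and 1.81 FPKM in replicate 1 and at 0, 0.24 and 0.64 FPKM in replicate 2, in the order sgNeg2, sgRNA#1, sgRNA#2. In the separate whole-number table its counts were 28, 26 and 17 in replicate 1 and 2, 2 and 9 in replicate 2. It fell by 2.48 ± 0.54 (SE) on the log2 scale, with an adjusted p of 0.00194 (edgeR). The size of the fall varied with the setting: it was -3.77 without either sgRNA#2 library, -2.07 to -1.98 without any other library and -1.22 with limma on log2(FPKM + 1), and it passed in each. NDUFA4 itself stayed at 58.6 to 63.0 FPKM. NDUFA4 is counted here with complex I by its symbol, although its protein is found in complex IV. EPAS1, the hypoxia-inducible factor HIF-2α, fell by 1.20 ± 0.13 in the knockout with the block, and between the numbers its difference was -0.29 with an adjusted p of 0.0964 (edgeR).

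The members are short, so the comparison of the replicate numbers was repeated to allow for a trend on transcript length. The size of such a trend between the numbers is not given here. With a smooth trend on length removed from each library, 34 members were called, 31 higher and 3 lower, where 45.3% of all genes were called, 23.1% higher and 22.2% lower. All 20 members called higher before were still called higher, and the 3 still lower were ATP5MC2, COX7A2L and NDUFA4L2. The complex medians became 0.12 for complex I, 0.093 for complex II, 0.077 for complex III, -0.021 for complex IV and 0.18 for complex V, beside 0.015 over all genes. COX6C, COX8A, COX7C and COX6A1 no longer passed. In the estimated counts without that step, 22 members of 94 were higher and 16 lower, where 52.6% of all genes were called, 25.5% higher and 27.1% lower, and with it 38 were higher and 5 lower, where 27.4% and 25.6% of all genes were. In deposited FPKM, 45 members of 94, or 47.9%, did not overlap between the numbers, against 57.3% of all genes, 30 of them higher and 15 lower.

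**Figure D5:**
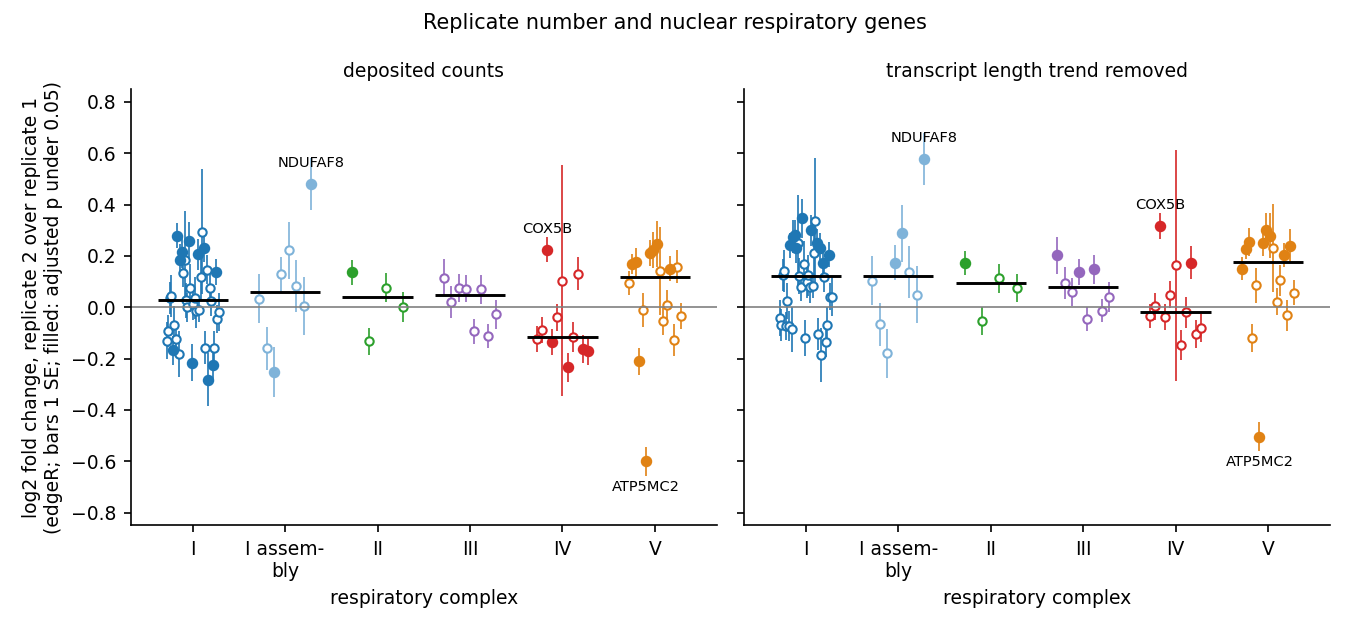
Log2 fold change of replicate 2 over replicate 1 (edgeR, points with 1 SE; filled points have an adjusted p under 0.05) by complex, from the deposited counts (left) and with the transcript length trend removed (right); black lines are medians. NDUFA6, at 2.45 from uncertain counts, lies outside the drawn range, and the complex V median moves from 0.12 to 0.18.

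Genes outside the respiratory complexes were compared in the same way, against the 21.6% higher and 23.5% lower of all genes. Of 84 cytosolic ribosomal protein genes tested, 72 fell and 1 rose in replicate 2, with a median log2 fold change of -0.34, and after the length step 66 fell and 3 rose. Their share of the summed FPKM was 31.5% to 33.7% in replicate 1 and 26.6% to 27.3% in replicate 2. Of 79 mitochondrial ribosomal protein genes, 17 rose and 16 fell, shares near those of all genes, and 25 rose and 7 fell after the length step, where 23.1% and 22.2% of all genes did. The part of these differences in the values of the respiratory genes was not tested.

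Genes that the member rule does not match, but that belong to or serve the respiratory chain, were examined from lists. Among them were CYC1, a complex III subunit gene, and CYCS, cytochrome c, so the complex III values above leave out CYC1. Of 49 other respiratory genes tested, mostly assembly factors, 0 were called in the knockout with the block, where 1.84% of all genes were, and 11 rose and 8 fell in replicate 2, where 21.6% and 23.5% of all genes did. ACAD9, a complex I assembly factor, rose by 0.52 ± 0.080 (SE), and TMEM70, which helps assemble the ATP synthase, by 0.47 ± 0.066. Of 18 genes of the tricarboxylic acid cycle, which supplies the electrons, 0 were called in the knockout, and 6 rose and 3 fell in replicate 2. IDH2, the mitochondrial NADP-dependent isocitrate dehydrogenase, fell by 1.28 ± 0.084. Of 17 regulators of respiratory genes, EPAS1 alone was called in the knockout with the block, and 5 rose and 3 fell in replicate 2. PPARGC1B, a coactivator of mitochondrial genes, rose by 0.44 ± 0.077, or 0.29 with the length trend removed, and MYC fell by 0.40 ± 0.063.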

How the data were processed

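RNA from 6 K562 libraries (3 guides, 2 libraries each) was sequenced, and members and gene lists were chosen with earlier results of these data known. Per the submitters' processing notes the tools included Trim Galore, HISAT2 2.2.1, SAMtools 1.9, HTSeq 0.6.1, RSEM 1.3.2 and DESeq2 1.36.0, with the build hg38; their roles and the strand setting are not given in the sources used here. The authors deposited whole-number counts per gene symbol and, in a second table, estimated counts with TPM, FPKM and transcript length per gene, named as such per the file headers. TPM and FPKM are the authors' values per transcript length and library size, as the file headers name them. Counts in rows that name no gene, 61.6% to 62.6% of each total, were left out. Gene counts were 8788816 to 9537470 per library, 50.4% to 51.6% of the estimated totals, and this depth limits the precision of the intervals given.

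Counts were tested in R 4.3.3 with edgeR 4.0.16 (quasi-likelihood F-test, TMM scaling, filterByExpr by group, Benjamini-Hochberg adjustment over 12282 genes, calls at adjusted p under 0.05). The main knockout fits had no block for the replicate number, and replicate 2 was compared with replicate 1 beside a term for the guide. Estimated counts were rounded to whole numbers. All 104 members had a row in the count tables, 22 of them under an older symbol. Standard errors were derived from each log2 fold change and its F statistic. The groups share numbers in the labels, and deviations of same-numbered libraries from their group means correlated at 0.811, 0.757 and 0.824 over 9966 genes, so the numbers were taken as pairs. Members were named by a rule: all of complex II, the highest and lowest subunit of the other complexes, isoform pairs, members called in a knockout fit, and the 10 largest rises and 10 largest falls by number; NDUFA3, ATP5MC1, UQCRFS1, UQCRQ, COX7C, COX6A1 and others beyond these were chosen after their values were seen. Alternatives included DESeq2 1.42.0, limma 3.58.1 on log2(FPKM + 1), other scalings and filters, the block, a length trend removed by loess, and each library left out. The fits were tested on simulated data.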

Additional observations from a re-analysis of the deposited data

How the results depend on the processing

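With 2 libraries a group, small differences could fall below what these depths can show, and the labels do not say what a replicate number stands for. The pairing by replicate number changed counts of members called. In the knockout 0 members were called without the replicate block and 1 of 91, or 1.10%, with it, where 0% and 1.84% of all genes were called. The count was also 1 with the block and DESeq2 size factors, estimated counts or the length trend removed, where 1.83%, 3.03% and 2.14% of all genes were. It was 0 with the block and no filter beyond 1 count, DESeq2 or limma, where 1.38%, 1.32% and 1.64% of all genes were. Leaving out a library gave 0 with or without the block, where 1.00% to 1.73% of all genes were called with it. For sgRNA#1 the count was 1 with the block, and 1 with the block and DESeq2 size factors or no filter beyond 1 count. Of all genes 0.887%, 0.863% and 1.63% were called there. It was also 1 with the block and the length trend removed. With the block it was 0 in estimated counts, DESeq2 and limma, where 1.39%, 0.432% and 0.372% of all genes were called. Leaving out a library moved NDUFA6 between 0.73 and 4.39 on the log2 scale with the block. For sgRNA#2, 1 member was called with the block and no filter, UQCRFS1 at -0.26, where 2.37% of all genes were, and leaving out a library gave 0 to 2 with the block, where 1.19% to 5.27% were. Between the guides 1 was called with the block and no filter, and leaving out a library gave 0 to 1, where 0.299% and 0.0977% to 0.773% of all genes were; it was NDUFA6, whose counts are uncertain. For sgRNA#1 against control NDUFA6 changed sign from 3.39 to -0.054 in estimated counts, to -0.058 and -0.059 with limma at a pseudocount of 1 and 0.1, to -0.058 with limma and no filter, and with the block to -0.057 in estimated counts and -0.058 with limma.

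For replicate 2 against replicate 1, 33 members were called, 14 with DESeq2, and 12 to 31 when a library was left out, where 45%, 28% and 32% to 44.7% of all genes were. Among single members set against another setting there, 283 values kept the call and direction and 74 kept the direction and lost the call. Leaving out a library gave medians by complex from -0.00099 to 0.053 for complex I, 0.013 to 0.092 for complex II, 0.0038 to 0.089 for complex III, -0.13 to -0.091 for complex IV and 0.050 to 0.16 for complex V. With the length trend removed the medians were 0.12, 0.077, -0.021 and 0.18 for complexes I, III, IV and V, and limma on FPKM gave -0.071 for complex IV. In the knockout the medians without a library were -0.0052 to 0.039 for complex I, -0.036 to 0.0095 for complex II, -0.048 to 0.0031 for complex III, -0.015 to 0.075 for complex IV and -0.068 to 0.012 for complex V, so their signs are not settled. The paired medians of subunits for sgRNA#2 were 0.030 and -0.026 for replicates 1 and 2 in CPM of the whole-number counts. The cause of these shifts was not tested.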
